A study of Mus musculus with 6 samples.

Results

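Cadherins are transmembrane proteins that hold neighbouring cells together by calcium-dependent binding of their extracellular repeats. The cytoplasmic tail of a classical cadherin binds p120-catenin near the membrane and beta-catenin further along, and alpha-catenin joins this complex to actin. Which cadherins a cell makes is one of the features that tell epithelia from mesenchyme: E-cadherin is the cadherin of most epithelia, P-cadherin is found in basal epithelial layers, N-cadherin in neural and mesenchymal cells, and OB-cadherin in osteoblasts and other mesenchymal cells.

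The 7 genes described here were looked up by name in the deposited expression table after its Ensembl identifiers had been matched to mouse symbols. They are 4 type I classical cadherins, Cdh1 (E-cadherin), Cdh2 (N-cadherin), Cdh3 (P-cadherin) and Cdh4 (R-cadherin), 2 type II classical cadherins, Cdh6 (K-cadherin) and Cdh11 (OB-cadherin), and Cdh13 (T-cadherin). Cdh13 is grouped with them by its extracellular repeats, but its protein is anchored in the membrane by a lipid and has no tail for catenins, so it is not a classical cadherin in the strict sense. The table held 22032 genes. Levels were in CPM, here read counts scaled to library size times a further factor per library, 0.981 to 1.031. Of the genes, 14740 averaged 1 CPM or more across the 6 libraries and entered the test. Cdh2, Cdh3, Cdh11 and Cdh13 were among those tested. Cdh1 and Cdh6 were listed at levels under the filter. Cdh4 was not among the matched symbols and was not analysed here.

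Gene expression had been measured by RNA sequencing in the mouse cell line mDE6. The cells carried a short hairpin RNA against Arl4c (shArl4c; Arl4c encodes an ARF-like small GTPase) or a control hairpin (shControl), with 3 libraries in each group. The libraries are called here by the numbers of the deposited columns, 2, 3 and 4 for shArl4c and 1, 2 and 3 for shControl. Both groups carried a hairpin, and the labels used here describe neither a second Arl4c hairpin nor untreated cells, nor do they state how many cultures or clones the libraries came from. P-values therefore measure only the spread between these libraries, which may be technical, and the loss of Arl4c cannot be told apart from anything else that this hairpin does. Arl4c itself averaged 7.02 ± 0.353 CPM in shArl4c and 20.6 ± 0.480 CPM in shControl (SD, n = 3 each).

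Whole reads could be recovered from the deposited values, and the libraries held 12316770 to 14976113 of them, so that 1 read was worth 0.0672 to 0.0827 CPM. Read counts of library pairs were compared over genes: chi-square divided by its degrees of freedom was 31.2 to 36.4 between groups. Within groups it was 1.57 to 2.40 for pairs without shArl4c 3 and 5.26 to 6.21 for the pairs with it, so shArl4c 3 stood apart from its group. In all, 5445 of 14740 genes (36.9%) differed between the groups at a limma adjusted p under 0.05, with 2790 higher (18.9%) and 2655 lower (18%) in shArl4c. With plain CPM, which leaves out the further factor per library, 3419 were higher and 2341 lower. Values are means ± SD of 3 libraries per group unless stated, and log2 fold changes are of CPM + 1, shArl4c over shControl, a scale on which changes of weakly expressed genes look smaller than they are.

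Of the cadherins, 3 fell and 1 rose. OB-cadherin, N-cadherin and P-cadherin mRNA was lower in shArl4c, by 2.43-fold for Cdh11, 1.35-fold for Cdh2 and 3.55-fold for Cdh3, and T-cadherin mRNA (Cdh13) was 4.22-fold higher. All 4 tested cadherins were called by limma, where 36.9% of all tested genes were, and in each of the 4 the groups did not overlap, as in 46.8% of all tested genes. Cdh3, Cdh11 and Cdh13 differed by at least 2-fold on the log2(CPM + 1) scale, as did 3.79% of tested genes, and edgeR on recovered reads also called all 4, with 36% of tested genes. Their median log2 fold change was -0.85, against 0.01 over all tested genes. E-cadherin mRNA was at the edge of detection in shControl and was not detected in shArl4c, and K-cadherin mRNA was close to the limit of detection in both. Since the RNA came from whole cultures, fewer cells making a transcript and less transcript per cell cannot be told apart.

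**Figure D1:**
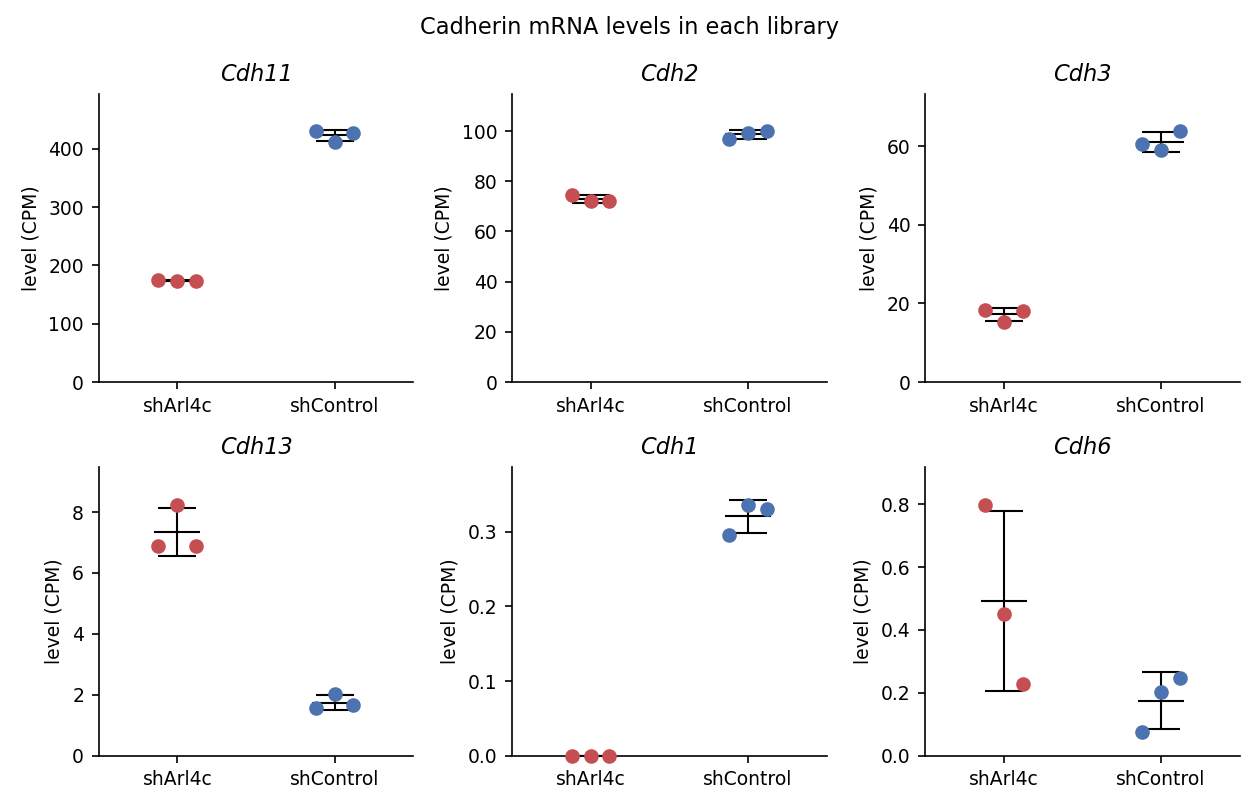
Level of each cadherin mRNA in CPM (vertical axes, starting at 0 and scaled per gene) in the 3 shArl4c and the 3 shControl libraries; points are libraries, the long bar the mean and the short bars 1 SD. Cdh11, Cdh2 and Cdh3 are lower in every shArl4c library than in any shControl library, Cdh13 is higher, Cdh1 is at 0 in all 3 shArl4c libraries, and Cdh6 overlaps.

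Cdh11 was the most abundant of the set. Its level was 175, 174 and 173 CPM in shArl4c 2, 3 and 4, against 430.3, 411 and 427 CPM in shControl 1, 2 and 3. The shArl4c libraries were nearly equal, and all lay far below the lowest shControl library, shControl 2. The means were 174 ± 0.857 CPM in shArl4c and 423 ± 10.1 CPM in shControl (log2 fold change -1.28, SE 0.04, limma adjusted p = 5.69e-15). The coefficient of variation between shArl4c libraries was 0.492%, smaller than the 2.07% that counting error alone gives at their mean of reads, and in shControl it was 2.38%, against 1.32% from counting. Cdh11 held rank 241 from the largest fall among the 14740 tested genes. Some reads counted to unclassified transcripts on the same strand within the Cdh11 gene (Gm45257, Gm45258 and 9430099M06Rik) may belong to Cdh11, but these held 502, 183 and 108 reads over the 6 libraries, against 6995 reads of Cdh11 in shArl4c and 17107 in shControl.

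Cdh3 had the largest fall of the 4 tested cadherins. It was read at 18.3, 15.4 and 17.98 CPM in shArl4c 2, 3 and 4, against 60.5, 58.9 and 63.8 CPM in shControl 1, 2 and 3. The lowest value was that of shArl4c 3, and the groups did not overlap. The means were 17.2 ± 1.61 CPM in shArl4c and 61.1 ± 2.50 CPM in shControl (log2 fold change -1.77, SE 0.07, limma adjusted p = 2.69e-13), which placed Cdh3 at rank 113 from the largest fall. Without shArl4c 3 the log2 fold change was -1.70.

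Cdh2, whose protein takes the place of E-cadherin in many cells that leave an epithelium, fell the least of the 3. Its values were 74.7, 72.3 and 72.01 CPM in shArl4c 2, 3 and 4, and 96.7, 99.4 and 99.95 CPM in shControl 1, 2 and 3. Libraries of a group were close together, and the groups did not overlap. The means were 72.99 ± 1.49 CPM in shArl4c and 98.7 ± 1.74 CPM in shControl (limma log2 fold change -0.43 with SE 0.05, adjusted p = 2.84e-07), and Cdh2 held rank 1274 from the largest fall. An annotated antisense gene, Gm15485, overlaps Cdh2 and was not analysed here, and the sources used here do not say whether the counting used strand, although the library kit was directional.

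Cdh13, which binds adiponectin in vessels and muscle, was the cadherin that rose. It stood at 6.90, 8.24 and 6.89 CPM in shArl4c 2, 3 and 4, against 1.55, 2.02 and 1.65 CPM in shControl 1, 2 and 3. The highest value was that of shArl4c 3, and the groups did not overlap. The values rested on 295 reads in shArl4c and 71 in shControl. The means were 7.34 ± 0.781 CPM in shArl4c and 1.74 ± 0.245 CPM in shControl (log2 fold change 1.61, SE 0.14, limma adjusted p = 2.97e-08), rank 43 from the largest rise among tested genes. Because the level is low, the log2 value depended on the pseudocount: it was 0.87 with a pseudocount of 5 (limma adjusted p = 2.83e-08) and 2.05 by edgeR's quasi-likelihood test on recovered reads (adjusted p = 1.68e-06). Without shArl4c 3 it was 1.53.

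**Figure D2:**
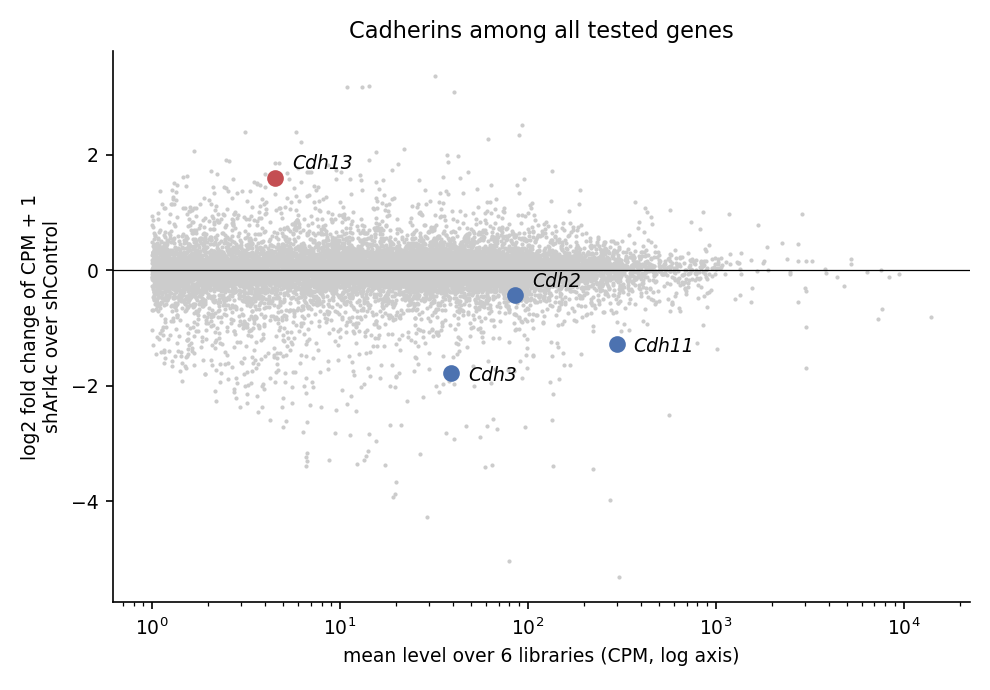
Log2 fold change of CPM + 1, shArl4c over shControl (vertical axis), against the mean level over 6 libraries in CPM (horizontal log axis); grey points are the 14740 tested genes and large points the 4 tested cadherins. Cdh3 (-1.77), Cdh11 (-1.28) and Cdh2 (-0.43) lie below 0 and Cdh13 (1.61) above it.

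The cadherins under the filter were read from their counts. Cdh1 had 0 reads in each of the 3 shArl4c libraries, against 4, 5 and 4 reads in shControl 1, 2 and 3, or 0.295, 0.336 and 0.331 CPM. A count of 0 over the group allows up to 3 reads, or 0.0747 CPM, so Cdh1 was at least 4.30-fold lower in shArl4c than the observed shControl level. The counting error of the 13 shControl reads is not part of that value. In fits with no filter on low values, limma gave Cdh1 an adjusted p of 0.00478 and edgeR on recovered reads an adjusted p of 0.00738; these fits called 25.2% and 24.6% of 22032 genes. Cdh6 had 11, 6 and 3 reads in shArl4c 2, 3 and 4 and 1, 3 and 3 reads in shControl 1, 2 and 3, and the groups overlapped in CPM. Its level averaged 0.493 ± 0.287 CPM in shArl4c and 0.175 ± 0.0903 CPM in shControl, a ratio of pooled levels of 2.88 with an exact 95% counting interval of 1.17 to 8.06. Unfiltered limma gave Cdh6 an adjusted p of 0.0934 and edgeR an adjusted p of 0.132, and neither called it.

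The cadherins were put in order within each group by level per kilobase of the longest annotated transcript, since longer transcripts give more reads. In shArl4c the order was Cdh11 at 30.8 ± 0.152, Cdh2 at 15.1 ± 0.307, Cdh3 at 3.93 ± 0.367, Cdh13 at 1.61 ± 0.171 and Cdh6 at 0.0603 ± 0.0351 CPM per kb, with Cdh1 at 0 reads. In shControl it was Cdh11 at 74.9 ± 1.78, Cdh2 at 20.4 ± 0.359, Cdh3 at 13.9 ± 0.570, Cdh13 at 0.381 ± 0.0537, Cdh1 at 0.0724 ± 0.00503 and Cdh6 at 0.0214 ± 0.0111 CPM per kb. The order of the first 4 was the same in both groups, and neighbours in it did not overlap in either group, while Cdh6 and Cdh1, which rest on at most 20 reads per group, exchanged places. Among all tested genes with a known length, the mean level per kb over the 6 libraries stood at percentile 92.8 for Cdh11, 74.5 for Cdh2, 55.5 for Cdh3 and 13.4 for Cdh13.

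The unequal changes altered the make-up of the set. The summed level of the 6 listed cadherins was 52.2, 51.1 and 51.2 CPM per kb in shArl4c 2, 3 and 4, against 110.4, 107 and 111 CPM per kb in shControl 1, 2 and 3. The sum was thus 2.13-fold lower in shArl4c, with no overlap. Cdh11 made up 59.9 ± 0.469% of it in shArl4c and 68.3 ± 0.654% in shControl, and Cdh3 made up 7.62 ± 0.661% in shArl4c and 12.7 ± 0.331% in shControl. Cdh2, although lower in level, made up a larger share, 29.3 ± 0.261% in shArl4c and 18.6 ± 0.513% in shControl, and the share of Cdh13 was 3.13 ± 0.355% in shArl4c and 0.348 ± 0.0555% in shControl. None of these 4 shares overlapped between the groups. Shares of this kind are not independent of each other, and no test was made of them.

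Ratios between members show the same values pair by pair. In CPM per kb of the longest transcript, the ratio of Cdh11 to Cdh2 was 2.05 ± 0.0321 in shArl4c and 3.68 ± 0.134 in shControl. Cdh2 exceeded Cdh3 by 3.86 ± 0.346 times in shArl4c and by 1.47 ± 0.0564 times in shControl. The ratio of Cdh13 to Cdh3 was 0.415 ± 0.0869 in shArl4c and 0.0275 ± 0.00469 in shControl, with the highest value, 0.515, in shArl4c 3. With the coding length in place of the transcript length, the ratio of Cdh11 to Cdh2 was 2.71 in shArl4c and 4.88 in shControl. The share of Cdh11 was then 66.05% in shArl4c and 74.04% in shControl. That of Cdh2 was 24.3% in shArl4c and 15.2% in shControl. This ratio and the shares thus moved with the length used, and the differences between groups kept their direction.

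**Figure D3:**
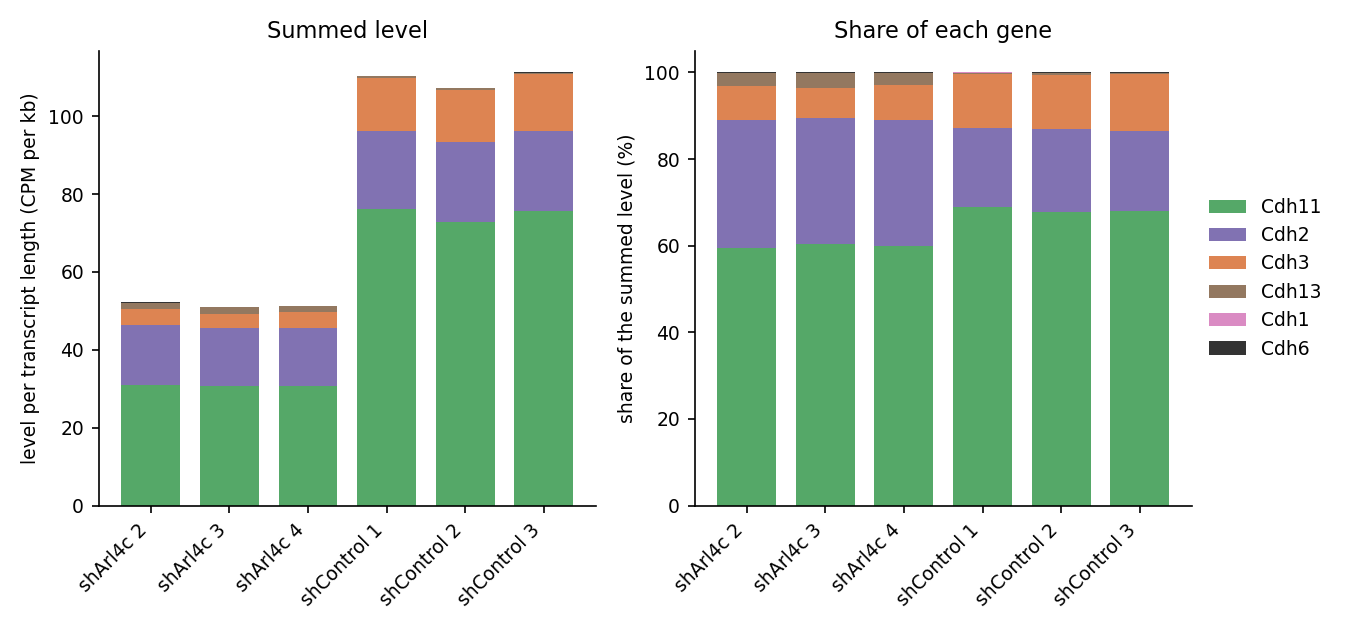
Summed level of the 6 listed cadherins in CPM per kb of transcript (left) and the share of each in percent (right) for each library, shArl4c 2 to 4 and then shControl 1 to 3; colours are genes. The sum is 51.1 to 52.2 CPM per kb in shArl4c and 107 to 111 CPM per kb in shControl, and the share of Cdh2 is larger in shArl4c (29.3%) than in shControl (18.6%).

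Other genes with the Cdh symbol were lower in level than Cdh11, Cdh2 and Cdh3. Of 16 such genes, 9 were listed and 5 tested, of which 1 rose and 1 fell, a share close to the 36.9% called over all tested genes. The median log2 fold change of the 5 was -0.14. Cdh22, a type II cadherin described mostly in brain, stood at 10.2, 9.52 and 10.5 CPM in shArl4c 2, 3 and 4, against 4.95, 5.65 and 4.38 CPM in shControl 1, 2 and 3 (log2 fold change 0.89, SE 0.12, limma adjusted p = 6.28e-06). Cdh24, another type II cadherin, stood at 8.71, 8.17 and 7.96 CPM in shArl4c, against 12.3, 12.8 and 11.7 CPM in shControl (log2 fold change -0.51, SE 0.10, limma adjusted p = 0.000343). Neither overlapped between the groups. Cdh22 was on the rising side like Cdh13, while Cdh24, at a similarly low level, was lower like the abundant cadherins. The 3 that did not pass were Cdh17, Cdh23 and Cdh26, with log2 fold changes of -0.22, -0.14 and 0.16. Cdh10, a type II cadherin under the filter that was picked out after its values were seen, had 2 reads in shArl4c and 34 in shControl, a ratio of pooled levels of 0.0593 with an exact 95% counting interval of 0.0069 to 0.231.

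The catenins, which bind the tails of the classical cadherins, did not move as one. Of 19 genes of catenins and the adherens junction plaque, 16 were tested, and 7 rose, 4 fell and 5 were not called (36.9% of all tested genes were called). The median log2 fold change was 0.09. Ctnnd1, encoding p120-catenin, which holds classical cadherins at the cell surface, was read at 510.5, 527 and 521 CPM in shArl4c 2, 3 and 4, against 690.5, 699.5 and 722 CPM in shControl 1, 2 and 3 (log2 fold change -0.44, SE 0.04, limma adjusted p = 2.68e-08). Its relative Ctnnd2, encoding delta-catenin, was low and rose, with 6.02 ± 0.625 CPM in shArl4c and 1.51 ± 0.256 CPM in shControl (log2 fold change 1.48, SE 0.15, limma adjusted p = 1.51e-07). These 2 genes of the p120 family thus moved in opposite directions. Ctnnd1 stood at 81.6 ± 1.29 CPM per kb in shArl4c and 110.7 ± 2.54 CPM per kb in shControl. Ctnnd2 stood at 1.01 ± 0.105 CPM per kb in shArl4c and 0.255 ± 0.0430 CPM per kb in shControl.

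Beta-catenin and alpha-catenin mRNA differed little. Ctnnb1, encoding beta-catenin, stood at 433 ± 14.4 CPM in shArl4c and 416 ± 6.54 CPM in shControl (limma log2 fold change 0.06 with SE 0.04, adjusted p = 0.304), and the groups overlapped. Without shArl4c 3 its adjusted p by limma was 0.0218, with a log2 fold change of 0.08, and with plain CPM it was 0.0406, with 0.09. Ctnna1, encoding alpha-E-catenin, was higher by a small amount, 243 ± 5.53 CPM in shArl4c and 222 ± 2.98 CPM in shControl (log2 fold change 0.13, SE 0.04, limma adjusted p = 0.0127), a call that was lost without shControl 1 or 2 or without shArl4c 2 or 4 (limma adjusted p of 0.0546 to 0.0663) or without trend and robust moderation (0.0750). Jup, encoding plakoglobin, which can replace beta-catenin on the cadherin tail, did not pass (limma adjusted p = 0.0618). It stood at 54.8 ± 1.56 CPM in shArl4c and 49.8 ± 2.59 CPM in shControl. Its limma adjusted p was 0.0306 without shArl4c 3 and 0.0179 with plain CPM. Lima1, encoding the actin-binding protein EPLIN that links alpha-catenin to actin, fell to 524 ± 1.18 CPM in shArl4c, against 616 ± 8.02 CPM in shControl (log2 fold change -0.23). Ctnna2 and Ctnna3 were not analysed here.

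**Figure D4:**
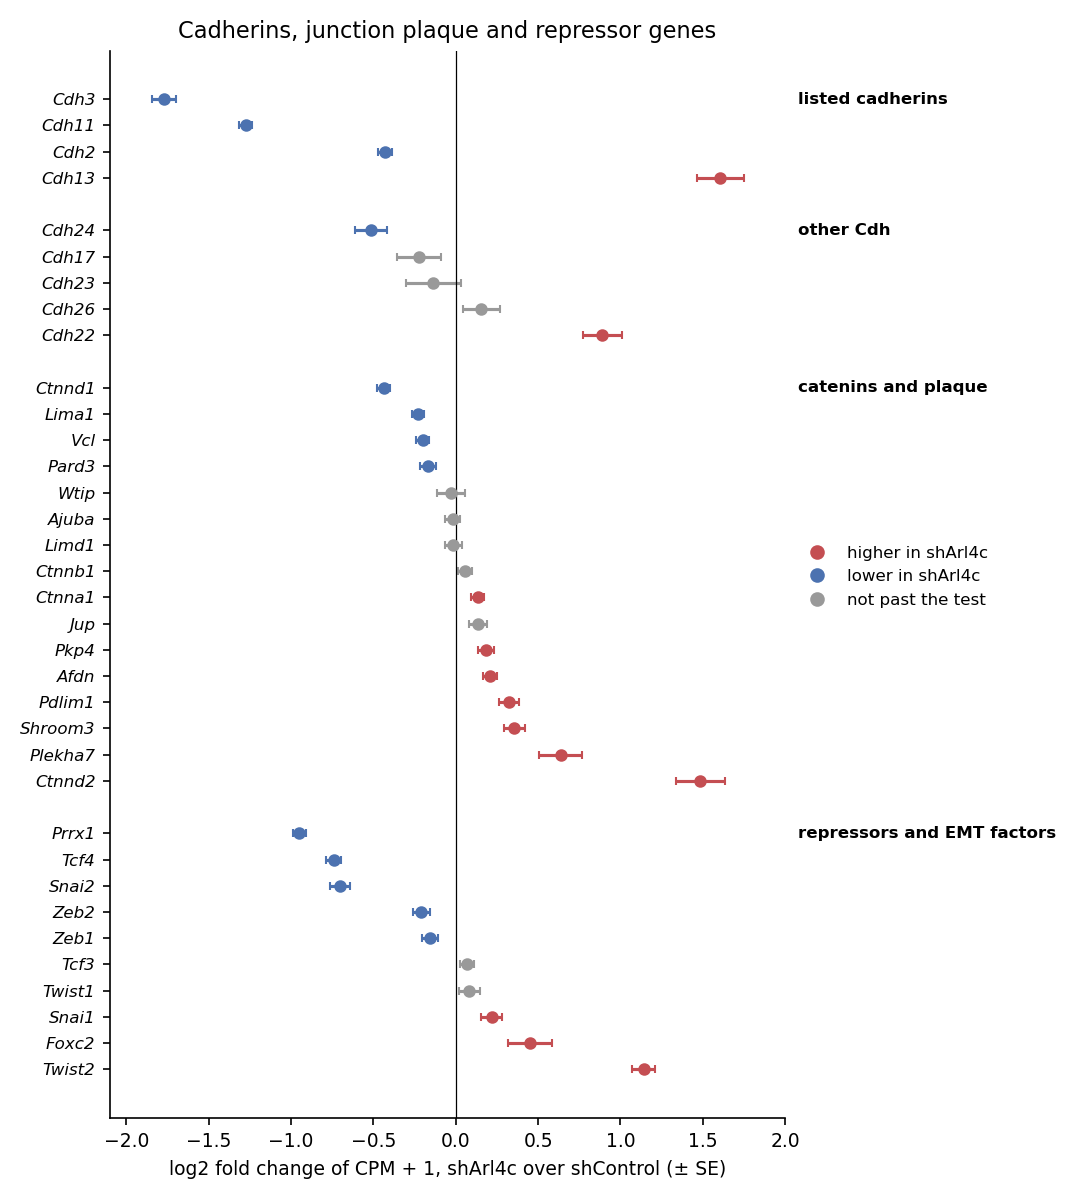
Log2 fold change of CPM + 1, shArl4c over shControl, with its SE (horizontal axis) for the tested cadherins, other Cdh genes, catenins and plaque genes, and repressors and EMT factors (rows); red marks genes higher in shArl4c, blue lower, and grey those not past a limma adjusted p of 0.05. Cdh3, Cdh11 and Ctnnd1 lie on the lower side, Cdh13 and Ctnnd2 on the higher side, and Ctnnb1 (0.06) near 0.

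The ratio of cadherin to catenin mRNA was lower in shArl4c. The summed level per kb of the listed cadherins other than Cdh13 was 0.412, 0.428 and 0.413 of the level per kb of Ctnnb1 in shArl4c 2, 3 and 4, against 0.974, 0.927 and 0.952 in shControl 1, 2 and 3. Relative to Ctnnd1, which fell as well, it was 0.611 ± 0.0186 in shArl4c and 0.988 ± 0.0226 in shControl. These are ratios of mRNA, and the proteins were not measured.

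Nectins, the immunoglobulin-type adhesion molecules that share the adherens junction with cadherins, included 1 clear fall and smaller rises. Of 4 tested, 2 rose, 1 fell and 1 was not called (median log2 fold change 0.08), where 36.9% of all tested genes were called. Nectin3 fell to 16.1 ± 0.446 CPM in shArl4c, against 27.5 ± 1.36 CPM in shControl (limma adjusted p = 1.37e-07), while Nectin1 (log2 fold change 0.23) and Nectin2 (0.20) rose by less. Neither rise was called by limma without trend and robust moderation or by DESeq2. Among 19 tested genes of cadherin partners and proteases, 8 rose, 6 fell and 5 were not called (median 0.09), where 36.9% of all tested genes were called. Pdgfra, a growth factor receptor gene, rose to 234 ± 2.47 CPM in shArl4c, against 138 ± 0.168 CPM in shControl (log2 fold change 0.76), and the receptor phosphatase genes Ptprm (-0.52) and Ptprf (-0.42) fell. Adam10, whose protease cuts the extracellular part off E- and N-cadherin, differed by 0.11 on the log2 scale (limma adjusted p = 0.0425). This list's count of 14 depended on the library set. It was 8, 7 and 8 without shControl 1, 2 or 3, 9 without shArl4c 2, 8 without shArl4c 4 and 16 without shArl4c 3. With 7 of 19 called without shControl 2, the list was closer to the share of all genes in that fit, 4347 of 14714.

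Transcription factors known to repress Cdh1 or to act in epithelial-mesenchymal transition (EMT) also went both ways. Of 10 tested, 5 fell, 3 rose and 2 were not called (median log2 fold change -0.05), where 36.9% of all tested genes were called. The 3 with the smallest p were Prrx1, a homeobox gene of mesenchyme, which fell to 585 ± 16.1 CPM in shArl4c, against 1132 ± 20.4 CPM in shControl, Tcf4, which fell to 163 ± 7.49 CPM in shArl4c, against 273 ± 5.39 CPM in shControl, and Twist2, which rose to 36.2 ± 1.64 CPM in shArl4c, against 15.9 ± 0.427 CPM in shControl. Snai2, encoding the repressor Slug, fell to 31.9 ± 0.749 CPM in shArl4c, against 52.6 ± 3.33 CPM in shControl (log2 fold change -0.70, limma adjusted p = 1.91e-08), and Snai1, encoding Snail, rose to 34.8 ± 0.769 CPM in shArl4c, against 29.8 ± 2.01 CPM in shControl (0.22, limma adjusted p = 0.0132). Zeb1 and Zeb2 fell by 0.16 and 0.21 on the log2 scale. Snai1, Snai2, Zeb1 and Zeb2 were picked for their known action on Cdh1 with their values in view. The call of Snai1 was lost without shControl 3 (limma adjusted p = 0.0824) and with DESeq2 (adjusted p = 0.0933). That of Zeb1 was lost without shControl 3, shArl4c 2 or shArl4c 4 (limma adjusted p of 0.0523 to 0.138) and with plain CPM (0.0550). By limma without trend and robust moderation, Zeb1 and Zeb2 were not called (adjusted p of 0.113 and 0.0647).

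Markers of cell types were read beside the cadherins. Epithelial junction and identity genes were few and low: of 28 on the list, 22 were listed and 8 tested, of which 3 rose, 1 fell and 4 did not pass, where 36.9% of all tested genes were called. Without shControl 2 only 2 of 9 tested ones were called, and without shControl 3 only 2 of 8. Both were below the share of all genes in the same fits, 4347 of 14714 and 4511 of 14746. For the whole list, the summed level was 247 to 256 CPM in shArl4c and 202 to 205 CPM in shControl. Most of that sum was Tjp1, encoding the junction scaffold ZO-1, at 188 ± 5.14 CPM in shArl4c and 159 ± 0.598 CPM in shControl, while Krt8 and Krt18, keratins of simple epithelia, were under the filter at 0.198 ± 0.111 and 0.0484 ± 0.0838 CPM in shArl4c and 0.0970 ± 0.0328 CPM each in shControl. F11r, a tight junction adhesion gene, rose as well (log2 fold change 0.50). Epcam, Esrp1 and Ocln were not analysed here. Of 3 tested desmosome genes 2 fell, Perp (-0.87) and Pkp2 (-0.42), where 36.9% of all tested genes were called and 18% were lower. Jup, also on this list, was not called (0.14). The desmosome list, Jup included, summed to 95.5 to 104 CPM in shArl4c and 116 to 119 CPM in shControl.

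Mesenchymal and osteoblast markers went both ways, with more of the tested ones lower than higher. Of 13 tested mesenchymal markers, 8 fell, 3 rose and 2 were not called, where 36.9% of all tested genes were called and 18% were lower, and Cdh2 and Cdh11 are themselves 2 of the 8. Col3a1, a fibrillar collagen gene, fell to 465 ± 15.2 CPM in shArl4c, against 1118 ± 19.3 CPM in shControl. The 3 that rose were S100a4, with 259 ± 25.1 CPM in shArl4c and 116 ± 6.02 CPM in shControl, Pdgfra (log2 fold change 0.76) and Pdgfrb (0.16). Of 10 tested osteoblast markers, 8 fell, 1 rose and 1 was not called (median log2 fold change -0.56), beside the same 36.9% called and 18% lower over all tested genes; Sp7 (-3.36), encoding osterix, and Col1a1 (-0.81) fell and Spp1 (1.04) rose. The part of these markers in the fall of Cdh11 was not tested.

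Markers of other cell types were at low sums. The 5 listed of 10 endothelial markers summed to 12.5 to 13.4 CPM in shArl4c and 21.4 to 22.9 CPM in shControl, most of it Flt1 (log2 fold change -0.91), and the endothelial cadherin gene Cdh5 was not analysed here. The 7 listed leukocyte markers summed to 9.002 to 10.04 CPM in shArl4c and 5.96 to 7.75 CPM in shControl, with Cd68 higher (0.84) and Ptprc at 0.0505 ± 0.0437 CPM in shArl4c and 0.0940 ± 0.0817 CPM in shControl. The 7 listed glial and neural markers summed to 8.24 to 9.03 CPM in shArl4c and 14.3 to 16.5 CPM in shControl, with Map2 (-1.34) and Tubb3 (-0.77) lower, and the 6 listed muscle markers to 2.25 to 2.52 CPM in shArl4c and 1.11 to 1.82 CPM in shControl. Each of these 4 sums differed between the groups without overlap, as did 46.8% of all tested genes. Each was below the level of Cdh3 in shControl, but the endothelial sum in shControl was above Cdh3 in shArl4c (15.4 to 18.3 CPM). The endothelial, leukocyte and glial sums were above the mean level of Cdh13 in both groups (7.34 CPM in shArl4c, 1.74 CPM in shControl). Their part in the cadherin results was not tested.

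Genes whose pattern lay closest to that of the cadherins at either end were found by Euclidean distance over the 6 libraries, on log2(CPM + 1) less each gene's own mean, among 10368 named genes averaging 5 CPM or more. Closest to Cdh3 were Itga11 (distance 0.101), an integrin subunit gene, Tmsb4x (0.151), encoding thymosin beta 4, and Parp8 (0.151), with log2 fold changes of -1.71, -1.88 and -1.81. Itga11 stood at 31.6, 28.5 and 32.1 CPM in shArl4c 2, 3 and 4, against 102, 101 and 106 CPM in shControl 1, 2 and 3. It shared with Cdh3 the low value in shArl4c 3, a match that the choice by distance favours. Among the genes closest to Cdh13 were Sdk1 (distance 0.231), encoding the adhesion molecule sidekick 1, and Peg3 (0.249), with log2 fold changes of 1.57 and 1.68. These distances were larger than those to Cdh3, and the Cdh13 values rest on fewer reads.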

How the data were processed

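RNA from 6 mDE6 libraries was made into strand-marked libraries (MGIEasy directional set, per the labels' protocols). The authors deposited 1 table of CPM per gene and library. Trimmomatic 0.38, RSEM 1.3.0, Bowtie2, edgeR and the build GRCm39 are named in the submitters' processing notes, without order or settings. Columns named shluc were taken as shControl and those with a misspelt Arl4c hairpin as shArl4c, by group only. All values (100%, tolerance 0.001 of a read) were whole multiples of 1 read's worth, so reads were recovered; the listed gene with the fewest reads had 6 over all libraries. Symbols matched 21880 of 22032 identifiers. Transcript and coding lengths came from an annotation of an older build, GRCm38, so no coordinates are given.

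Genes averaging 1 CPM or more (14740) were fitted as log2(CPM + 1) with limma 3.58.1 (R 4.3.3; trend, robust), shArl4c against shControl, with Benjamini-Hochberg adjustment over all of them and a threshold of 0.05. On recovered reads, edgeR 4.0.16 called 5304 genes and DESeq2 1.42.0 was also run. Alternatives changed the pseudocount, filter, scaling, moderation, test, length and library set; plain CPM, edgeR without a filter and a block on column numbers were added after seeing the data. The limma and edgeR fits were also run on simulated data with few changed genes and the same spread setting for every gene and library. No simulated library stood apart as shArl4c 3 does, so that run does not test the fits under the spread seen here. The members and lists were chosen with earlier results of these data known. Named genes were the members, Arl4c, the catenins, the 3 genes of smallest p past the threshold in each list, and the 3 nearest to the highest and lowest member; others were chosen after their values were seen. Some genes that this rule names are not reported here.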

Additional observations from a re-analysis of the deposited data

How the results depend on the processing

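Cdh2, Cdh3, Cdh11 and Cdh13 kept their direction and stayed past the threshold under all 19 alternatives that could be fitted. For Cdh13 there were 18, since it falls below a filter of 5 CPM. The highest adjusted p was 0.000845, for Cdh2 by limma without trend and robust moderation. Of these alternatives, the block on column numbers adds little, as given below. With 1 library left out, log2 fold changes ran from -0.45 to -0.42 for Cdh2, -1.81 to -1.70 for Cdh3, -1.30 to -1.26 for Cdh11 and 1.53 to 1.68 for Cdh13. The count of called cadherins was 3 to 5, the fifth being Cdh1 where no filter was used. Depth limits Cdh1 and Cdh6, with at most 20 reads per group.

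The groups share the column numbers 2 and 3, which the labels do not tie to samples. Deviations of same-numbered libraries correlated at -0.01 and -0.12, so the numbers gave no pairing. A replicate block on them called 3419 genes in all and 39 of the other list genes (62 without it), 5 each of the catenin, partner and repressor lists, 1 nectin and 2 epithelial genes, and no call of a cadherin was lost. Among the other genes, Ctnna1, Zeb1 and Zeb2 lost their calls. The block fit has 1 residual degree of freedom, so its p-values rest mostly on the spread borrowed from other genes. The calls it kept therefore add little support. The numbers of shControl 1 and shArl4c 4 occur in a single group, so these libraries add nothing to its fold changes. The cause of the lower counts was not tested.

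The nectin list had 1 call with limma without trend and robust moderation and 1 with DESeq2, both rises being lost. The partner list, with 19 tested, had 6 and 7 under these 2 settings, and 7 to 16 with 1 library left out. Over all tested genes these 2 settings called 4491 and 4108 of 14740, and fits with 1 library left out called 4347 to 6625. The epithelial list had 2 calls with DESeq2 and 2 to 4 with 1 library left out. With coding length, shares were 24.3% (Cdh2), 6.32% (Cdh3) and 66.05% (Cdh11) in shArl4c and 15.2%, 10.4% and 74.04% in shControl.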
